A study of Homo sapiens with 12 samples.

Results

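Translation initiation factors are the proteins that bring a ribosome, the initiator tRNA and a messenger RNA together at a start codon. Their genes were taken by symbol (EIF1 to EIF6 and their lettered or numbered relatives), without antisense names, pseudogenes and the near-identical pair EIF3C and EIF3CL. This gave 39 genes of the 19345 genes with an m6A peak or a differential m6A peak, and 21 of the 39 had expression values. In the scanning mechanism, eIF2 carries the initiator tRNA to the small ribosomal subunit, eIF3 holds that subunit together with other factors, and eIF4F binds the capped 5′ end of the message. eIF2B recharges eIF2 with GTP, and a small family of stress-activated kinases blocks that step by phosphorylating eIF2. N6-methyladenosine (m6A) is a methyl mark inside messenger RNA that FTO, a demethylase, can remove, and FTO also acts on a related methylated adenosine next to the cap (m6Am), which m6A antibodies bind as well.

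FTO was knocked down in HGC27, a human gastric carcinoma cell line, and the knockdown cells were set against control cells of that line. The knockdown samples are titled FTO-KO and sh and carry the genotype FTO-KO, whereas the protocol speaks of a knockdown, and the control samples are titled WT and Con, with the genotype WT and no hairpin named. Fragmented poly(A) RNA was sequenced after pull-down with an m6A antibody (IP) and without it (input), with 3 IP and 3 input libraries per condition and 12 libraries in all. Nothing in the labels says that the numbered libraries were separate cultures or separate hairpins. The p-values of expression below therefore reflect only how far these samples scatter, and that scatter may be technical. Those of m6A are the authors' own, and without m6A values per library it cannot be told whether they reflect scatter between samples. Input expression was given as FPKM (fragments per kilobase of transcript, scaled to the mapped fragments) per library, and m6A as 1 peak list per condition plus 1 table of differential peaks.

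FTO RNA was at 0.786, 0.83 and 0.765 FPKM in the knockdown libraries and 5.48, 5.68 and 5.52 FPKM in the control libraries, 7.00-fold lower on means after knockdown. Summed over the listed genes, FPKM ranged from 83712 to 86902 in knockdown and from 74289 to 78461 in control libraries. Correlations of log2(FPKM + 1) between libraries were 0.988 to 0.992 within a condition and 0.958 to 0.969 between conditions. Of 8 gastric epithelial markers only MUC1, an epithelial mucin, was tested, at a mean of 1.43 FPKM after knockdown and 1.24 FPKM in control. Of 4 fibroblast markers 2 were tested: COL1A1, a collagen chain, averaged 147 FPKM after knockdown and 169 FPKM in control, and THY1, a surface protein, 14.97 FPKM after knockdown and 12.5 FPKM in control. Their part in the results was not tested, and no immune marker was listed.

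Initiation factor genes moved in both directions after FTO knockdown. Of the 21 with FPKM, 8 rose and 7 fell by limma on log2(FPKM + 1) at a Benjamini-Hochberg adjusted p under 0.05, and 6 did not pass. Over all 4515 tested genes 24.5% rose, 37.9% fell and 62.4% passed in either direction. The same 8 had every knockdown library above every control library, as did 27.3% of tested genes, and the same 7 had every knockdown library below, as did 40.5%. The median log2 change was -0.08 over the initiation factors and -0.07 over all tested genes. Among calls, 53.3% of the members' were rises, against 39.3% over all genes. After centring each library on its median gene, 10 members rose and 4 fell, and 55.4% of calls over all genes were rises. Only genes with a differential m6A peak have FPKM in the files, so these counts describe a selected set, and the log2(FPKM + 1) scale understates the change of low genes. In bulk RNA, fewer cells with a transcript and less RNA per cell cannot be told apart.

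**Figure D1:**
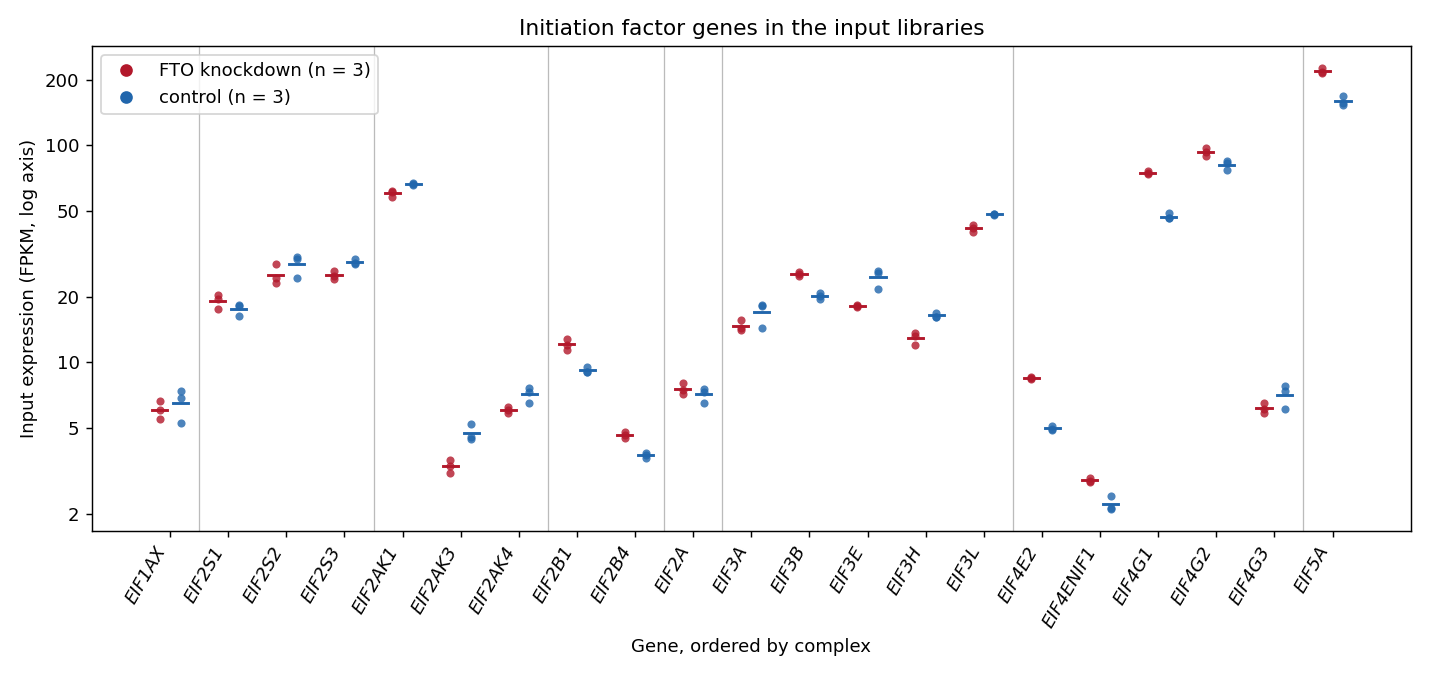
Input expression (FPKM, log axis) of the 21 initiation factor genes with values, in knockdown (red) and control (blue) input libraries, with 1 point per library, bars at the mean and grey lines between complexes. The widest gaps between conditions are those of EIF4G1 (means of 74.8 in knockdown and 46.9 in control) and EIF4E2 (8.46 and 4.98).

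The group of eIF4F, which recognises the cap and unwinds the 5′ end, and its regulators held both largest changes. Of the group's 5 tested genes 4 rose and none fell, against 24.5% and 37.9% of all tested genes, and EIF4G3 did not pass. EIF4E and EIF4A2 had no FPKM, so these counts do not describe the cap-binding complex as a unit. All 6 differential m6A peaks of the group were higher after knockdown, where 55.4% of all usable differential peaks were higher. The summed FPKM of the 5 genes was 180.8 to 188.8 in knockdown libraries and 138.8 to 145.2 in control libraries, ranges that did not overlap. Nor did the sums over all listed genes, 83712 to 86902 in knockdown and 74289 to 78461 in control. Most of the group's sum came from EIF4G1 (means of 74.8 in knockdown and 46.9 in control) and EIF4G2 (93.2 and 81.2). EIF4G1 encodes the scaffold that joins the cap-binding protein, the RNA helicase, the poly(A)-binding protein and eIF3, and lies at chr3:184314606-184335358 on the plus strand. It had 74.7, 73.4 and 76.4 FPKM after knockdown and 46.0, 46.1 and 48.5 FPKM in control. Every knockdown library was well above every control library, and the means differed 1.596-fold (log2 change 0.66, 95% interval 0.57 to 0.75, adjusted p = 1.58e-05).

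EIF4E2, at chr2:232550689-232583644 on the plus strand, encodes a cap-binding relative of EIF4E that is known as a translational repressor. It had 8.55, 8.45 and 8.37 FPKM after knockdown and 4.89, 4.94 and 5.10 FPKM in control. The groups stood far apart, at a ratio of means of 1.70 (log2 change 0.66, 95% interval 0.57 to 0.75, adjusted p = 1.58e-05). EIF4ENIF1, which encodes a protein that binds EIF4E and carries it into the nucleus and into processing bodies, had 2.81, 2.93 and 2.85 FPKM after knockdown and 2.13, 2.12 and 2.41 FPKM in control. Its groups did not overlap, and its log2 change was 0.26 (95% interval 0.14 to 0.39, adjusted p = 0.00354).

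The 3 EIF4G paralogues differed in level and in what the test found. EIF4G2, whose product resembles the scaffold but lacks the part that binds EIF4E, had 88.9, 97.4 and 93.2 FPKM after knockdown and 84.3, 82.5 and 76.7 FPKM in control. Its lowest knockdown library was just above its highest control library (log2 change 0.20, 95% interval 0.08 to 0.32, adjusted p = 0.0118). EIF4G3, the closer paralogue of EIF4G1, had 5.85, 6.53 and 6.10 FPKM after knockdown and 7.78, 7.42 and 6.07 FPKM in control. Those groups overlapped through the third control library (log2 change -0.17, 95% interval -0.36 to 0.02, adjusted p = 0.105). The interval of EIF4G3 lay wholly below those of EIF4G1 and EIF4G2, and the difference between paralogues was not tested.

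On the m6A side, enrichment is the ratio of IP over input that the authors' deposited lists give per peak, without replicates. EIF4G1 had 5 peaks in the knockdown list and 4 in the control list. Its strongest, at chr3:184331988-184335148 in the knockdown list, ended near the 3′ end of the gene. It had 18-fold enrichment after knockdown and 13.5-fold in control, and is the highest knockdown-list peak listed under a member's symbol. The authors' deposited table has differential rows for 2 weaker peaks inside the gene instead. At chr3:184327239-184327616, 7742 bases before the gene's end, m6A was higher by 1.21 on the log2 scale (adjusted p = 7.94e-90), with peaks of 3.57-fold after knockdown and 1.36-fold in control. At chr3:184324243-184325347 it was higher by 0.49 (adjusted p = 1.26e-42), with peaks of 3.19-fold after knockdown and 1.82-fold in control. Both carry a 3′ UTR label in the deposited table although they lie far inside the gene. A peak at chr3:184319995-184320055 (7.28-fold) was in the knockdown list alone.

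**Figure D2:**
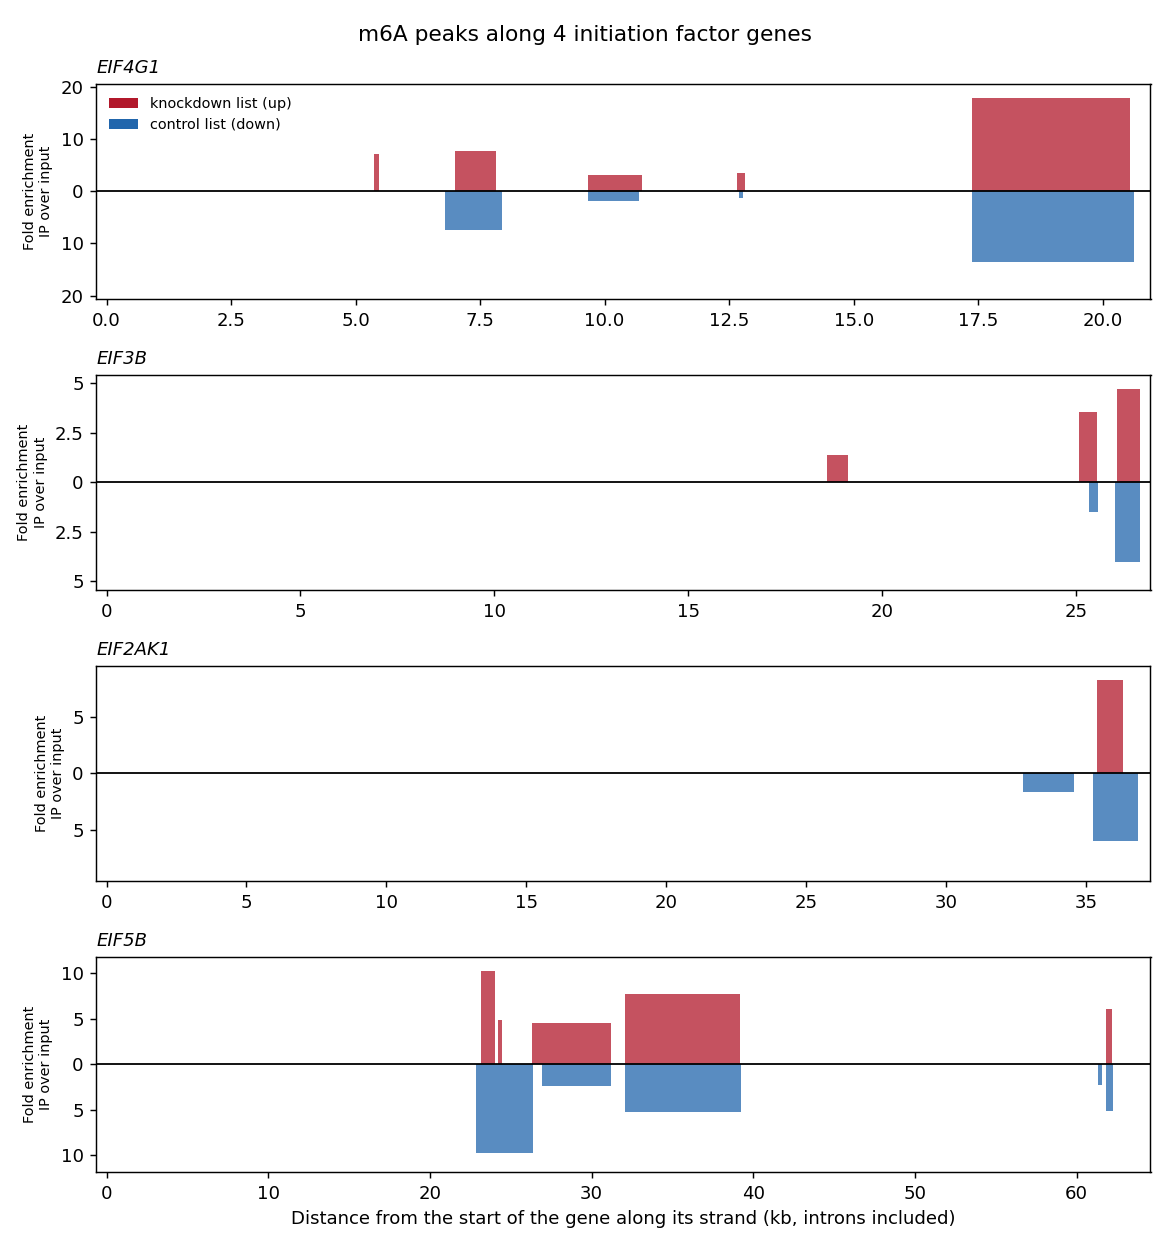
m6A peaks along EIF4G1, EIF3B, EIF2AK1 and EIF5B, with distance from the gene's start in kilobases along its strand (introns included) and fold enrichment of IP over input, knockdown list above and control list below the line. Each block spans a peak from its first to its last base; EIF4G1 has a tall block at its 3′ end in both lists (18 in knockdown, 13.5 in control), and the upstream EIF2AK1 block (1.61) is in the control list alone.

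EIF4E2 and EIF4G2 carried their differential peak at the 5′ end, over the transcription start. For EIF4E2 the peak at chr2:232550674-232550974 had 6.33-fold enrichment after knockdown and 3.13-fold in control, and the authors' deposited table gives it a log2 change of 0.74 with an adjusted p of 0.109, which misses 0.05. The other EIF4E2 peaks had 2.89-fold and 2.79-fold enrichment after knockdown and 3.48-fold and 3.25-fold in control. EIF4G2 had no peak in the control list and 1 of 1.6-fold in the knockdown list at chr11:10808730-10808940, with a differential row of 0.60 (adjusted p = 0.00107). EIF4ENIF1 had its differential peak near the 3′ end, at 7.02-fold after knockdown and 2.80-fold in control (log2 change 0.72 in the authors' deposited table, adjusted p = 0.00372). EIF4G3, whose RNA did not pass the test, had an internal exon peak of 6.37-fold after knockdown and 4.89-fold in control (log2 change 0.43, adjusted p = 0.000661).

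These 5′ peaks lie at the capped end of the transcript, where m6Am is found, so the start sequences of 6 members with such a peak are shown. They are the first 30 transcribed bases at RefSeq starts of GRCh38.p14, given 5′ to 3′ on the transcript strand, with the first base and any GGAC in capitals, GGAC being a common core of m6A sites. EIF4E2 begins at chr2:232550689-232550718 on the plus strand and EIF5A at chr17:7307628-7307657 on the plus strand. On the minus strand, EIF4ENIF1 is read from chr22:31489813-31489842, EIF4G2 from chr11:10808897-10808926, EIF4G3 from chr1:21176868-21176897 and EIF6 from chr20:35284743-35284772. EIF6 has another RefSeq start under the same peak, at chr20:35284717, which begins with G and is not shown. 
EIF4E2: Actccctgaggcagtggcgacagcggcggc
EIF4ENIF1: Agttacggcggctgaagagagacagcccaa
EIF4G2: Gccagcagtgagtcggagctctatggaggt
EIF4G3: AgccgtcctgccGGACtgctggaggcggcc
EIF5A: Gtactaagacccgtgtgcagcagcggcggc
EIF6: Agtccaaggtacagtcgccgcgtgcggagc

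In all, 11 RefSeq starts of 10 members lay under a peak within their first 50 bases. Of these starts 7, or 63.6%, begin with A. So do 42.9% of the 49 starts of the 33 members in the sequence table and 44.4% of the 35116 starts in that table. Among the 7 are EIF4ENIF1, whose start peak had an adjusted p of 0.209, and EIF4E3, whose peak belongs to the gene model of GPR27. The EIF4G3 start is also among them, and its peak does not cover the first base. The share of A was not tested, and no excess is read from it. GGAC on the transcript strand within the first 50 bases was found at 1 of the 11, the EIF4G3 start, and at 12.2% of member starts and 18.9% of all starts. Start peaks of EIF4G2, EIF5A and EIF4ENIF1 were in the knockdown list alone, with 1.6-fold, 3.46-fold and 7.28-fold enrichment, and that of EIF4ENIF1 had an adjusted p of 0.209. Start peaks of EIF2B2 (1.97-fold) and EIF4G3 (2.29-fold, beginning 9 bases inside the transcript) were in the control list alone, and so was one over the EIF4E3 start that belongs to the gene model of GPR27. EIF6, EIF1AD, EIF2B3 and EIF4E2 had a start peak in both lists, though that of EIF2B3 in the control list had an adjusted p of 0.0871.

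Of the 3 eIF2 subunit genes with FPKM, 1 fell and 2 did not pass, while both tested genes of the exchange factor rose. Over all tested genes 37.9% fell and 24.5% rose. EIF2S1 encodes the alpha subunit of eIF2, the one the stress kinases phosphorylate, and had 17.6, 20.4 and 19.5 FPKM after knockdown and 18.4, 18.2 and 16.4 FPKM in control. EIF2S2, the beta subunit, had 23.3, 28.2 and 24.5 FPKM after knockdown and 30.7, 29.96 and 24.3 FPKM in control. Both pairs of groups overlapped (log2 changes 0.11 and -0.15, adjusted p = 0.172 and 0.209). EIF2S3, the gamma subunit that binds GTP and the initiator tRNA, had 24.2, 26.5 and 24.9 FPKM after knockdown and 29.8, 28.6 and 28.5 FPKM in control. Its groups did not overlap, and it fell (log2 change -0.19, 95% interval -0.30 to -0.09, adjusted p = 0.00606), but not after median-centring (-0.10, adjusted p = 0.0714). EIF2S3B is a near-identical copy of EIF2S3, and how reads they share were assigned is not given in the sources used here.

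All 3 eIF2 kinase genes with FPKM fell, as did 37.9% of all tested genes. Their summed FPKM was 66.9 to 71.0 in knockdown libraries and 77.9 to 78.6 in control libraries, most of it from EIF2AK1 (means of 60.1 and 66.3). EIF2AK3 encodes PERK, the kinase that senses unfolded protein in the endoplasmic reticulum, and lies at chr2:88556741-88628145 on the minus strand. It had 3.09, 3.56 and 3.32 FPKM after knockdown and 4.54, 5.18 and 4.43 FPKM in control. Its groups were clearly apart (1.42-fold lower after knockdown, log2 change -0.40, 95% interval -0.56 to -0.25, adjusted p = 0.00122). EIF2AK4, encoding GCN2, which senses uncharged tRNA, had 5.84, 6.21 and 6.03 FPKM after knockdown and 7.65, 7.28 and 6.48 FPKM in control. EIF2AK1, encoding the haem-regulated kinase, had 57.9, 60.8 and 61.7 FPKM after knockdown and 65.8, 66.1 and 66.9 FPKM in control, the highest level of the 3. The groups of both genes were separate but close (log2 changes -0.21 and -0.14, adjusted p = 0.0165 and 0.0148). Neither passed after median-centring (adjusted p = 0.0981 for EIF2AK4 and 0.363 for EIF2AK1). Without knockdown library 1 both also missed the threshold (0.0565 and 0.0581), and EIF2AK4 did so without control library 1 (0.0572) or 2 (0.0542).

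The 5 differential peaks of the kinases were lower in 4 cases and higher in 1, against 44.6% and 55.4% of all usable rows. EIF2AK1 had both directions within its 3′ region, as the authors' deposited table shows. The stretch chr7:6022247-6023918, reaching the end of the gene, was higher after knockdown by 0.49 (adjusted p = 7.94e-80), with 8.23-fold enrichment after knockdown and 5.92-fold in control. The stretch chr7:6024664-6024784, 2417 bases before the end, was lower (log2 change -0.52, adjusted p = 2.00e-13), and its 1.61-fold peak was in the control list alone. EIF2AK3 had a peak of 7.10-fold at its 3′ end in the control list alone, with a log2 change of -0.84 (adjusted p = 0.00204), the lowest among member rows, while an internal peak had 7.48-fold enrichment after knockdown and 7.41-fold in control. For EIF2AK4 the deposited rows had log2 changes of -0.20 (adjusted p = 0.000295) and -0.33 (adjusted p = 0.0617). Enrichment at the first row reached 3.73-fold after knockdown and 3.72-fold in control. Control-list peaks of 1.49-fold to 2.43-fold, including that of the second row, had no knockdown counterpart. Its strongest listed peak, without a differential row, had 8.55-fold after knockdown and 7.27-fold in control. A 3′ end peak listed under SRP14-AS1 had 8.71-fold after knockdown and 5.88-fold in control. EIF2AK2, encoding PKR, which senses double-stranded RNA, had 3 peaks of 1.34-fold to 3.02-fold, all in the control list alone, and no FPKM.

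Both eIF2B genes with FPKM rose, as did 24.5% of all tested genes. EIF2B1, the alpha subunit of the exchange factor, had 11.5, 12.03 and 12.8 FPKM after knockdown and 9.06, 9.47 and 9.07 FPKM in control. EIF2B4, the delta subunit, had 4.497, 4.61 and 4.78 FPKM after knockdown and 3.82, 3.64 and 3.76 FPKM in control. Neither gene had overlapping groups (log2 changes 0.36 and 0.25, 95% intervals 0.25 to 0.47 and 0.14 to 0.35, adjusted p = 0.00047 and 0.00182). Their m6A rows in the authors' deposited table differed in direction. The EIF2B1 peak near the 3′ end, at chr12:123621035-123621725, was lower after knockdown (log2 change -0.59, adjusted p = 2.00e-36), with 6.67-fold enrichment after knockdown and 9.59-fold in control. The EIF2B4 row, 60 bases from the gene's start, had a log2 change of 1.22 with an adjusted p of 0.11, and neither list holds a peak for this gene. EIF2B2, EIF2B3 and EIF2B5, which hold the other subunits, had peaks in both lists but no differential row and no FPKM. Of the EIF2B5 peaks, the one at the 3′ end had 6.07-fold enrichment after knockdown and 4.52-fold in control.

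**Figure D3:**
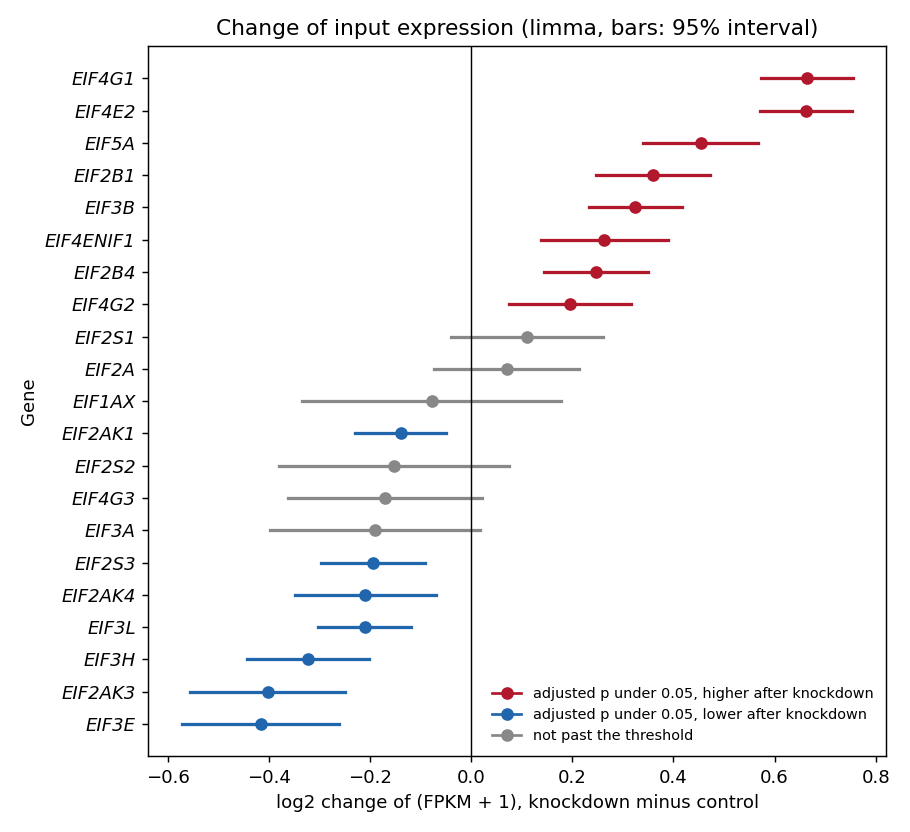
log2 change of input (FPKM + 1), knockdown minus control, of the 21 initiation factor genes, with limma's 95% intervals and colours by call. EIF4G1 and EIF4E2 lie highest at 0.66, EIF3E and EIF2AK3 lowest at -0.42 and -0.40, and the 6 grey genes have intervals that cross 0.

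Subunit genes of eIF3, the largest initiation factor, did not move together: 1 rose, 3 fell and 1 did not pass. Among all tested genes 24.5% rose and 37.9% fell. EIF3E, which encodes a subunit of the outer part of the complex, had 18.1, 17.99 and 18.4 FPKM after knockdown and 25.7, 26.4 and 21.9 FPKM in control. Control library 3 was nearest to the knockdown libraries but still above them all (1.36-fold lower after knockdown, log2 change -0.42, 95% interval -0.57 to -0.26, adjusted p = 0.00109). EIF3H, another outer subunit, had 12.02, 13.3 and 13.6 FPKM after knockdown and 16.9, 16.2 and 16.2 FPKM in control, with separate groups (log2 change -0.32, 95% interval -0.44 to -0.20, adjusted p = 0.00111). EIF3L had 39.9, 41.4 and 42.9 FPKM after knockdown and 48.3, 47.5 and 48.3 FPKM in control, again without overlap (log2 change -0.21, 95% interval -0.30 to -0.12, adjusted p = 0.00242).

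EIF3B, a core scaffold subunit at chr7:2354086-2380745 on the plus strand, was the subunit gene that rose. It had 25.01, 25.6 and 26.1 FPKM after knockdown and 20.2, 19.6 and 20.9 FPKM in control. The groups were apart by more than the spread within either (1.26-fold higher after knockdown, log2 change 0.32, 95% interval 0.23 to 0.42, adjusted p = 0.000286). EIF3A, the largest subunit and the other core scaffold, had 14.3, 15.6 and 14.1 FPKM after knockdown and 18.2, 18.4 and 14.4 FPKM in control. Control library 3 overlapped the knockdown libraries (log2 change -0.19, 95% interval -0.40 to 0.02, adjusted p = 0.0971), and without it EIF3A passed at -0.30 (adjusted p = 0.00144). EIF1AX, EIF2S2 and EIF4G3 likewise passed the test as lower without that library, which gave 11 falls in place of 7.

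The m6A rows of eIF3 genes divided 3 higher to 4 lower, where 55.4% of all usable rows were higher and 44.6% lower. In EIF3B, the authors' deposited table has m6A at chr7:2379158-2379698, 1047 bases before the gene's end, higher by 1.17 (adjusted p = 1e-106), with 3.54-fold enrichment after knockdown and 1.48-fold in control. A weaker internal peak of 1.4-fold, at chr7:2372674-2373265 in the differential table, was in the knockdown list alone and was higher by 0.62 (adjusted p = 7.94e-32). EIF3E and EIF3H each had a peak (3.19-fold and 3.53-fold) in the control list alone, with log2 changes of -0.60 (adjusted p = 0.0224) and -0.59 (adjusted p = 1e-42). The EIF3L rows were both near -0.2 (log2 changes -0.22 and -0.20, adjusted p = 1.2e-06 and 1.82e-06) and cover nearly the same bases, 1 of them on an overlapping gene model without a symbol. EIF3L also has the highest value among the members' control peaks, 31.7-fold, but that peak begins and ends upstream of its start, on the model of its neighbour ANKRD54.

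For EIF3A the row and the peaks listed under its symbol point in different directions. The highest peaks on its gene model within the row's region point the same way as the row. The deposited row, chr10:119037126-119058238, gave a log2 change of 0.66 (adjusted p = 1e-36), whereas the peak listed under the gene had 4.90-fold enrichment after knockdown and 9.24-fold in control. The control peak spans the whole region, and the knockdown list splits it into the listed peak and a further block at chr10:119037216-119050640 with 22.7-fold enrichment, which it lists under the neighbour AL157388. In this way 6 knockdown and 11 control peaks on gene models of initiation factors are listed under a neighbour and are not counted among the members' peaks. EIF3F, EIF3I and EIF3J, with no FPKM and no differential row, had strongest peaks of 12.6-fold, 7.26-fold and 6.02-fold after knockdown and 18.7-fold, 6.87-fold and 6.83-fold in control.

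Of the remaining genes with FPKM, EIF5A stood out by level. Its product, which carries the rare amino acid hypusine, helps ribosomes through stalling sequences and in termination. EIF5A had 214, 216 and 227 FPKM after knockdown and 157, 154 and 169 FPKM in control. It had the highest mean of the 21 genes in both conditions, and every knockdown library exceeded every control library (1.37-fold, log2 change 0.45, 95% interval 0.34 to 0.57, adjusted p = 0.000158). Its peaks differed in place between the lists. A 3′ peak at chr17:7312016-7312224 (1.8-fold) was in the control list alone, with a deposited log2 change of -0.53 (adjusted p = 5.01e-35). The start peak at chr17:7307578-7307637 (3.46-fold) was in the knockdown list alone, with no differential row. It covers only 10 of the first 50 bases from the RefSeq start shown above, and it begins 579 bases inside the gene's RefSeq span. Its assignment to that start was not tested. EIF1AX, which helps the small subunit scan, had 5.49, 6.65 and 6.02 FPKM after knockdown and 6.88, 7.34 and 5.23 FPKM in control. EIF2A, an alternative carrier of the initiator tRNA, had 7.14, 8.01 and 7.43 FPKM after knockdown and 7.54, 7.31 and 6.53 FPKM in control. Both had overlapping groups (log2 changes -0.08 and 0.07, adjusted p = 0.565 and 0.354). The row assigned to EIF1AX (log2 change -0.73, adjusted p = 3.16e-19) lies upstream of its start, at -13587 bases, on the model of RPS6KA3, so it does not describe EIF1AX RNA.

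The members without FPKM are known here by their peaks alone. EIF6, which keeps the large ribosomal subunit from joining early, had 1 peak, over its start, of 17-fold after knockdown and 12.2-fold in control. EIF1AD, named for its resemblance to eIF1A, had its strongest peak at 14.9-fold after knockdown and 19.6-fold in control, the highest in the control list on a member's own model. EIF5B, the GTPase that joins the subunits, had 5 peaks in each list, the strongest of 10.3-fold after knockdown and 9.68-fold in control. EIF5, which triggers GTP hydrolysis by eIF2, had an identical interval in both lists, of 3.49-fold after knockdown and 2.86-fold in control. EIF4E, the cap-binding protein itself, had peaks only in the control list, the stronger of them, 11.5-fold, beyond the RefSeq end of the gene. EIF4A2, a helicase, and EIF4B, its cofactor, had weak peaks of 2.09-fold and 1.89-fold after knockdown and 2.79-fold and 2.61-fold in control.

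By listed symbol, 29 of the 38 members with a peak had peaks in both lists, and EIF4G2 in the knockdown list alone. The control list alone held peaks of 8 (EIF2S3, EIF2S3B, EIF2AK2, EIF2D, EIF3E, EIF3H, EIF4E and EIF5A2). Those in both include EIF1AX, whose peaks lie on the RPS6KA3 model, and EIF4E3, whose control peak lies on that of GPR27. On their own gene models 29 members had knockdown peaks and 35 had control peaks. The share in both was 76.3%, against 68.5% of all genes, and the share in the control list alone was 21.1%, against 26.5%. Members had 55 peaks in the knockdown list and 89 in the control list, where all genes had 28891 in the knockdown list and 39492 in the control list. The median enrichment of members' peaks was 4.58-fold after knockdown and 3.82-fold in control, below the 7.05-fold and 6.11-fold of all peaks in the same lists. Of the members' knockdown peaks 87.3% overlapped a control peak by at least 1 base of exon, and of their control peaks 52.8% overlapped a knockdown peak (88.7% and 57.6% over all genes). The groups differed in their counts. Genes of eIF4F and its regulators had 20 peaks in each list. eIF2 genes had 3 after knockdown and 9 in control, and the kinases 6 after knockdown and 14 in control. For eIF2B there were 4 after knockdown and 11 in control, and for eIF3 9 after knockdown and 20 in control. Counting only peaks on a member's own gene model left eIF3 with 8 after knockdown and 13 in control, since 7 control peaks listed under EIF3L lie on other models. At an adjusted p of at most 1e-05 members had 49 peaks after knockdown and 62 in control, and all genes 23525 after knockdown and 24373 in control. With 1 list per condition and neither depth nor caller given, a difference in the number of peaks has no replicate check.

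Differential m6A rows fell on 21 members, with 26 rows, of which 12 were higher and 14 lower after knockdown, where 55.4% of all usable rows were higher and 44.6% lower. Without the EIF1AX row, which lies off the gene, and with the overlapping EIF3L rows counted as 1, 12 were higher and 12 lower. Of the 26 rows, 10 higher and 13 lower ones had an adjusted p of at most 0.05. A log2 change of at least 1 was reached by 3 rows, all higher (EIF2B4, EIF4G1 and EIF3B), against 16.8% of all rows that were higher and 9.69% that were lower by that much. The median absolute log2 change was 0.59 in member rows and 0.69 in all rows. In the eIF2 group EIF2S1 was higher (0.54, adjusted p = 2.00e-27) and EIF2S2 lower (-0.41, adjusted p = 3.98e-29), with peaks of 2.73-fold and 3.76-fold after knockdown and 1.64-fold and 5.48-fold in control. EIF2S3 was lower as well (-0.60, adjusted p = 2.00e-11), with no peak in the knockdown list.

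Set beside expression, the direction of the m6A rows followed that of the RNA for most called members. Of the 8 that rose, 6 had only higher m6A rows and 2, EIF2B1 and EIF5A, only lower rows. Among the 6, the single rows of EIF2B4 and EIF4E2 missed 0.05 in the authors' deposited table (adjusted p = 0.11 and 0.109). Of the 7 that fell, 6 had only lower rows and EIF2AK1 had both directions. Over all tested genes, 60.5% of those that rose had only higher rows and 28.2% only lower rows. Of all those that fell, 45.2% had only lower rows and nearly as many, 44.7%, only higher rows. The input libraries enter both quantities, and their part in this was not tested.

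**Figure D4:**
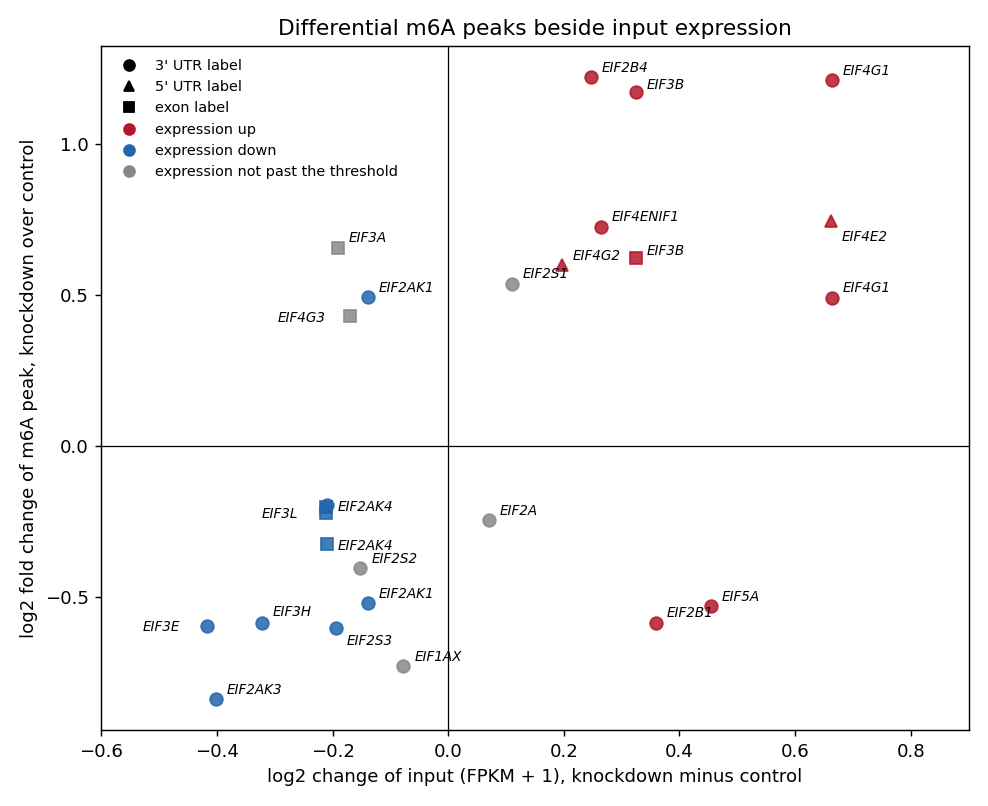
log2 fold change of each differential m6A peak (authors' deposited values, turned to knockdown over control) against the log2 change of input (FPKM + 1) of its gene, coloured by expression call and shaped by the peak's annotation label. All rows of genes of eIF4F and its regulators lie above 0, from EIF4G3 at 0.43 to EIF4G1 at 1.21. The 2 EIF3L points nearly coincide, and the EIF1AX point is a peak on a neighbouring gene.

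The authors' deposited table also gives a q-value per gene for expression. It is above 0.05 for 5 of the 15 members that passed limma, namely EIF2AK1 (0.921), EIF2S3 (0.671), EIF3L (0.579), EIF2AK4 (0.421) and EIF3H (0.0555), all of them falls, and is 2.62e-23 for EIF4G1 and 1.5e-20 for EIF4E2. It is below 0.05 for EIF2S1 (0.00611) and EIF2A (0.0423), which did not pass limma. The same table marks none of the 21 members as significant, and the 282 genes it does mark all have an absolute log2 change of at least 1.

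Other genes of the translation machinery were divided as well, with 6 of 16 tested genes higher and 5 lower, beside the 24.5% and 37.9% of all tested genes. Among elongation factors, EEFSEC, which delivers selenocysteine tRNA, was the only one of 5 to pass (log2 change 0.25, adjusted p = 0.0366), but it missed the threshold in 6 of 12 alternatives, with no filter on low values and without any single library other than control library 3 (highest adjusted p = 0.11). Of the termination genes, ETF1, the release factor, rose (0.18, adjusted p = 0.0169), though not without knockdown library 2 or 3 (highest adjusted p = 0.0594). MTRF1, its mitochondrial counterpart, fell (-0.14, adjusted p = 0.0389) but missed the threshold in 7 of 11 alternatives, its values ranging from -0.20 to 0.02. Among partners and regulators 4 of 9 rose and 4 fell. PPP1R15A, which directs a phosphatase to eIF2 and so opposes the kinases, rose (0.30, adjusted p = 0.000239), as did PABPN1, TSC1 and RPTOR by 0.18 to 0.28. CYFIP1, which binds EIF4E (-0.46, adjusted p = 0.000112), MTIF3, a mitochondrial initiation factor (-0.46, adjusted p = 0.000326), and PAIP1, a partner of the poly(A)-binding protein (-0.36, adjusted p = 0.00217), fell. PABPC1, the poly(A)-binding protein itself, fell by 0.13 (adjusted p = 0.03), but not after median-centring (highest adjusted p = 0.535) or without knockdown library 1 or 2 or control library 1 or 2.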

How the data were processed

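Expression came from the 6 input libraries, as FPKM per gene computed by the authors, per the file headers, for 6396 genes that have a differential m6A peak. Bowtie 0.12.2, HISAT2 2.0, StringTie 1.3.0 and the mouse build mm8 are named per the submitters' processing notes. Positions in the files were human, since 99.2% of 14724 genes matched by symbol overlapped their RefSeq span in GRCh38.p14, and they are given as GRCh38, counted from 1. The peak caller, strand setting and treatment of reads shared with pseudogenes (known for EIF1AX, EIF2S2, EIF3E and EIF5A among others) are, like the library depth, not given in the sources used. Low FPKM values gave no steps of whole reads (smallest above 0, 7.49e-07). Fold enrichment (the ratio of IP over input), with log10 p-values and adjusted p-values as scores, was deposited as 1 list per condition, and the differential table holds, per the file headers, a log2 fold change, a p-value and the adjusted p as a log10 score. A gene q-value is also deposited. Of 8970 differential rows, 283 with a deposited p-value above 1 were left out, and the remaining 8687 all had p at most 0.049. Deposited log2 values of expression were control over knockdown (recomputed to within 1.46e-13), and those of m6A ran against the enrichment ratio of the lists, knockdown over control (rho -0.824 across 3658 peaks), so both were turned to knockdown over control. Distances to a gene's start and end are genomic, within its RefSeq span.

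Samples were grouped by title. Genes averaging 1 FPKM or more were tested with limma 3.58.1 in R 4.3.3 (empirical Bayes with a trend, log2(FPKM + 1), two-sided, no block), with Benjamini-Hochberg adjustment over 4515 genes and a threshold of 0.05, after a test on simulated data. Peaks were compared over exonic blocks with at least 1 base shared. Same-numbered libraries of both conditions had deviations correlated at -0.0769, 0.0278 and 0.0247, so the numbers were not taken as pairs. Values per library are given for called members with separate groups and for members with a paralogue or fellow subunit, and for EIF1AX. EIF2A was added after its values were seen. Differential rows named are the 12 of smallest p, all rows of members with several, and, added after their values were seen, the rest of their complexes. Members, lists and tests were chosen with earlier results of these data known. Symbols ending in -DT or -AS1 were treated as antisense. Alternatives were other pseudocounts, filters, scalings, a replicate block, leaving out each library, and stricter peak thresholds.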

Additional observations from a re-analysis of the deposited data

How the results depend on the processing

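Of the 15 called members 12 (EIF2AK3, EIF2B1, EIF2B4, EIF3B, EIF3E, EIF3H, EIF3L, EIF4E2, EIF4ENIF1, EIF4G1, EIF4G2 and EIF5A) had the same call under each of 12 alternative settings in which they were tested. EIF2AK3, EIF2B4 and EIF4ENIF1 were not tested at a mean of at least 5 FPKM. Members called down numbered 4 after median-centring and 5 to 11 when single libraries were left out, the highest without control library 3. EIF1AX, which did not pass, turned to 0.015 after median-centring and ranged from -0.20 to 0.0063 when single libraries were left out. Median-centring also added EIF2S1 (0.20, adjusted p = 0.019) and EIF2A (0.16, adjusted p = 0.0366) as higher. With the replicate number as a block, 8 members rose and 8 fell, the addition being EIF3A (adjusted p = 0.0398), and no other member's call changed. The numbers were not shown to pair libraries, the highest correlation being 0.189 between unlike numbers. Other translation genes called down, 5 as reported, numbered 3 at a mean of at least 5 FPKM, 3 after median-centring and 3 to 5 when single libraries were left out. Among member differential rows 3 were higher and 0 lower by at least 1 on the log2 scale (1457 and 842 over all genes). Peaks of at least 4-fold enrichment numbered 29 in the knockdown and 44 in the control list, and those at an adjusted p of at most 1e-05 numbered 49 in the knockdown and 62 in the control list. The causes were not tested. The precision of expression is limited by 3 libraries per condition at an unknown depth, and m6A values by the lack of replicates.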
